A study of Saccharomyces cerevisiae with 12 samples.

Results

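The comparison set the 3 xylose pulse arrays against the 3 glucose pulse arrays, chosen by their sample labels, out of 12 arrays in the series. Both groups had received HMF and furfural, so the question was which expression differences between the glucose and the xylose consumption phase remained, appeared, turned or closed in cells under the same inhibitors. Of 5705 probe sets on the arrays, 5489 carry 1 named gene and were tested.

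All arrays hold RNA from 1 strain of Saccharomyces cerevisiae, VTT C-10883, a strain of CEN.PK descent, MATalpha with MAL2-8c and SUC2. It overexpresses the xylulokinase gene XKS1 from its own locus and carries at ura3 the XYL1 and XYL2 genes of Scheffersomyces stipitis, for xylose reductase and xylitol dehydrogenase. It was grown anaerobically, under nitrogen, in batch cultures on a mixture of glucose and xylose with ergosterol and Tween 80 in the medium. The glucose pulse group was sampled 1 h after furfural, at 1.2 g/L, and HMF, at 3.9 g/L, were added while glucose was being consumed, and the xylose pulse group 1 h after the same dose was added while xylose was being consumed. The glucose control and xylose control groups, 3 arrays each, received no inhibitor before sampling, and the labels do not say whether they are samples drawn before the pulse or cultures never pulsed. The study's methods describe RNA samples from just before and 1 h after the pulse, and also a control experiment without inhibitors. Control and pulse arrays of a phase may therefore come from the same bioreactors. They were used here only to give the phase difference without inhibitors. The pulses of the 2 phases belonged to separate experiments, so the sugar, the age and growth rate of the culture and the cultivation run cannot be told apart in any phase difference below.

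Glucose represses the yeast genes for other carbon sources, respiration and gluconeogenesis, while it induces low-affinity hexose transporters, glycolysis and ribosome production. Xylose enters this yeast through its hexose transporters and, after conversion to xylulose 5-phosphate, runs through the pentose phosphate pathway, and it exerts little of that repression. HMF and furfural are aldehydes formed when plant biomass is hydrolysed under acid, and yeast reduces them to their alcohols with NADH or NADPH, so that reductases, drug exporters, chaperones and NADPH-forming enzymes are the genes usually looked at.

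Values are log2 expression after RMA, on which a difference of 1 is a 2-fold change, and RMA's quantile normalization makes every level relative to the rest of the array. On each array the lower quartile was at least 8.097 and at most 8.335, and no value on any array passed 14.452. Detection calls were not used, so a level of 2 to 5 is dim and the size of a difference that includes one is approximate. A probe set was called when limma's Benjamini-Hochberg adjusted p was under 0.01 and the log2 difference above 1 or below -1. A fit to all 12 arrays gave the pulsed phase difference (xylose pulse minus glucose pulse), the control phase difference (xylose control minus glucose control) and the difference between them. Replicate arrays of 1 group correlated at 0.992 to 0.998, glucose pulse with xylose pulse arrays at 0.769 to 0.784, and glucose control with xylose control arrays at 0.637 to 0.651. The strain label was checked against mating type genes. The 4 alpha genes had group means of 7.7 to 13.5 in the 4 groups, and the 7 a genes 2.4 to 8.0.

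Between cells that had both received the pulse, 2396 of 5489 probe sets were called (43.7%), 1139 higher (20.8%) and 1257 lower (22.9%) in the xylose phase. Without inhibitors 3015 were called (54.9%), 1524 higher (27.8%) and 1491 lower (27.2%). The median size of the phase difference was 0.857 on the log2 scale in pulsed cells and 1.14 in controls, with a median standard error of 0.11 for the pulsed difference. Differences above 4 in size numbered 170 in the pulsed and 403 in the control comparison. The 3 and 3 pulsed arrays did not overlap in 4541 probe sets (82.7%), among them all 2396 called ones.

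The difference between the phase differences was called in 2134 probe sets (38.9%), of which 1043 lay above (19.0%) and 1091 below (19.9%) their control phase difference. From these 3 sets of calls each probe set was placed in a class. The phase difference remained in 1750 probe sets (31.9%), called the same way with and without inhibitors. It appeared in 325 (5.92%), called in pulsed cells, not called in controls, and with the difference between the 2 called. It turned in 76 (1.38%), called in opposite directions. It closed in 794 (14.5%), called in controls, not called in pulsed cells, and with the difference between the 2 called. The rest were called in 1 comparison with no call on the difference (245 in pulsed cells, 395 in controls, here unsettled) or in neither (1904).

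The remained class held 73.0% of the pulsed calls and 58.0% of the control calls. Of its 1750 probe sets 834 were higher and 916 lower in the xylose phase, and the pulsed difference was the smaller of the 2 in 1221 of them. The difference between the 2 was called toward a narrower pulsed difference in 588 and toward a wider one in 102. A call needs a change above 1 as well as the adjusted p, so the 1060 without a call can include smaller significant changes. Over all 5489 probe sets the pulsed and the control phase difference, which come from different arrays normalized together, correlated at r = 0.756, given as a description. Of the 794 closed probe sets, 651 had a 95% confidence interval of the pulsed difference that lay wholly between -1 and 1. For the other closed ones the missing call does not show that the pulsed phases were alike.

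**Figure D1:**
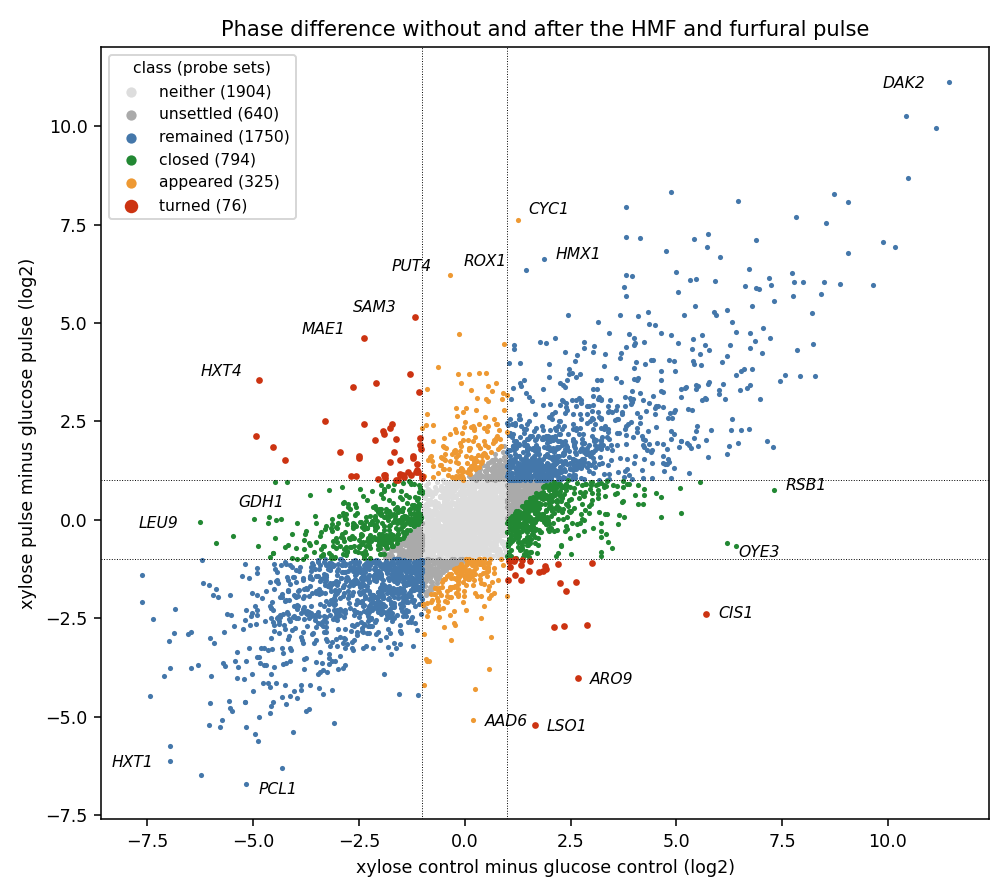
Log2 phase difference in pulsed cells (y axis, xylose pulse minus glucose pulse) against that in controls (x axis, xylose control minus glucose control), 1 point for each of 5489 probe sets, coloured by class, with dotted lines at 1 and -1. The 1750 that remained lie in the lower left and upper right corners beyond the dotted lines, while the 76 that turned lie in the other corners.

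The largest differences were high levels in the xylose phase that were seen with and without the pulse. DAK2, a dihydroxyacetone kinase, lay at 2.44, 2.25 and 1.98 on the glucose pulse arrays and at 13.30, 13.33 and 13.38 on the xylose pulse arrays. Its difference of 11.11 ± 0.11 (SE) was the largest of all and compared with 11.44 in controls. RGI2, a gene of respiratory growth, followed at 10.25 and the hexose transporter gene HXT15, whose probe set is shared with near-identical transporters, at 9.96. SPG4, named for stationary phase growth, differed by 8.69. JEN1, the permease for lactate and pyruvate, lay at 3.86, 3.82 and 3.82 against 11.63, 12.14 and 12.07, and its difference of 8.11 ± 0.12 exceeded the 6.46 of the controls (adjusted p of the difference 1.7e-06). SUE1, a mitochondrial protein needed to degrade unstable cytochrome c, differed by 7.94 in pulsed cells and 3.81 in controls. ECM13, YMR206W, ISF1 and YJR115W completed the 10 at 8.32, 8.28, 8.06 and 7.70. All 10 were dim on the glucose pulse arrays, so these sizes are not exact.

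Among the 10 largest in the other direction, most belong to the cell cycle and the cell wall. PCL1, a cyclin of the Pho85 kinase made in G1, lay at 9.37, 9.44 and 9.47 on the glucose pulse arrays and at 2.40, 2.69 and 3.03 on the xylose pulse arrays, a difference of -6.72 ± 0.12. RNR1, the large subunit of ribonucleotide reductase, lay at 10.34, 10.62 and 10.88 against 4.94, 5.12 and 5.44. The cohesin subunit gene MCD1 differed by -5.61, the septum chitin synthase gene CHS2 by -5.40 and YOX1, a homeobox repressor of the cell cycle, by -5.27. UTR2, a transglycosylase that links chitin to the cell wall, differed by -6.32 in pulsed cells and by -4.31 in controls. TOS6 differed by -6.49 and MKC7, a protease anchored in the cell surface, by -5.76. The remaining pair were HXT1 at -6.13 and AAC3, the ADP/ATP carrier made under anaerobic conditions, at -5.27. These 10 were picked among called genes whose pulsed arrays do not overlap, so their lack of overlap follows from the choice. Each belonged to the remained class.

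Sugar entry held examples of every fate. Of 13 measured hexose transporter and glucose sensor genes 9 were higher and 1 lower in the xylose phase of pulsed cells, with a median difference of 2.19 against -0.07 over all probe sets. HXT1, a low-affinity transporter induced by high glucose, lay at 11.38, 11.88 and 11.14 on glucose pulse arrays against 5.59, 5.17 and 5.24 on xylose pulse arrays. HXT7, a high-affinity transporter repressed by glucose, whose probe set also reads HXT6, went the other way at 9.47, 9.81 and 10.43 against 13.37, 13.85 and 13.80. The differences of HXT1 and HXT7 were also called in controls, at -6.97 and 4.96. With the dimmest 25% of probe sets left out, 6 of the 13 genes stayed in the test, of which 4 were higher and 1 lower.

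HXT4 turned. It is a high-affinity transporter gene, and it lay at 8.75, 8.50 and 9.05 on the glucose pulse arrays and at 12.47, 12.19 and 12.31 on the xylose pulse arrays. In controls its means were 12.27 (glucose) and 7.41 (xylose), so that a control phase difference of -4.86 became a pulsed one of 3.56 ± 0.21. The change of 8.42 between the 2 was the largest positive one on the array. HXT3, another low-affinity transporter gene, closed. It was lower by 3.04 in the xylose control than in the glucose control (mean 9.90 against 12.94), while in pulsed cells it lay at 13.08, 13.50 and 13.48 against 12.82, 12.89 and 12.94, a difference of -0.47 (95% interval -0.81 to -0.13). RGT2, the sensor for high glucose, appeared with 2.43 ± 0.08, and its partner SNF3, the sensor for low glucose, remained with 2.19 against 2.79 in controls.

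Of 20 measured genes of glycolysis and pyruvate decarboxylation 10 were lower and 2 higher in pulsed cells, with a median of -0.95 against -1.18 in controls, and the difference between the 2 comparisons was called in 5. ENO2, the main enolase gene of fermenting cells, lay at 14.31, 14.33 and 14.31 against 11.70, 11.98 and 11.66. The glucose arrays lay near the top of the scale there, where a difference can be understated. ENO1 differed by -2.23 and the pyruvate decarboxylase gene PDC1 by -2.50. PDC5, a second pyruvate decarboxylase gene, was at 13.55, 13.58 and 13.44 against 9.42, 9.76 and 9.68, and its difference of -3.91 was wider than the -1.92 of controls. HXK2, the hexokinase that also takes part in glucose repression, was narrower at -2.29 against -4.90.

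In the pentose phosphate pathway, through which xylose carbon must pass, 5 of 17 genes were higher (29.4%) and 6 lower (35.3%) in the xylose phase of pulsed cells. The shares over all probe sets were 20.8% and 22.9%, and in controls 9 genes were higher and 8 lower. Minor isoenzyme genes were among the higher ones. TKL2 (transketolase), NQM1 (transaldolase) and GND2 (6-phosphogluconate dehydrogenase) were higher by 3.52, 3.30 and 3.19, each significantly less than in controls at 7.45, 6.50 and 6.02. SOL3, a 6-phosphogluconolactonase, and SHB17, which makes ribose precursors from glycolytic intermediates, were lower by 2.84 and 3.27. The major transketolase gene TKL1 closed. It lay at 13.36, 13.13 and 13.22 against 13.19, 13.15 and 13.11 in pulsed cells, while the controls differed by -2.64. ZWF1, whose enzyme opens the pathway and forms NADPH, had a pulsed difference of -0.09 (95% interval -0.25 to 0.07) after 1.07 in controls. The overexpressed XKS1 lay at 13.36, 13.40 and 13.43 on glucose pulse arrays against 12.05, 11.83 and 11.60 on xylose pulse arrays, a difference of -1.57 ± 0.10. GRE3, an aldose reductase of yeast that also reduces xylose, turned from 1.34 in controls to -1.16 ± 0.09. The XYL2 probe set reads the yeast's own gene, with a pulsed difference of -0.45 ± 0.21, and the S. stipitis genes were not analysed here.

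Many genes for the use of 2- and 3-carbon compounds and for respiration were higher in the xylose phase of these anaerobic cultures. Of 16 genes of gluconeogenesis, the glyoxylate cycle and acetate use 12 were higher and 0 lower, with a median of 3.59 in pulsed cells and 4.01 in controls. Most of these genes have a low mean level, and with the dimmest 25% of probe sets left out 3 of the 16 stayed in the test, of which 2 were higher, with a median of 1.72. CAT8, a transcriptional activator of gluconeogenesis, lay at 4.62, 4.46 and 4.82 against 10.70, 10.69 and 10.40. FBP1, fructose 1,6-bisphosphatase, lay at 2.53, 2.50 and 2.18 against 8.52, 8.93 and 8.62, and its difference of 6.29 exceeded the 5.0 of controls. PCK1, phosphoenolpyruvate carboxykinase, closed, with a pulsed difference of 0.20 (95% interval -0.06 to 0.47) after 2.49 in controls.

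The respiratory chain and ATP synthase showed the most uniform phase difference, with 34 of 36 genes higher and 0 lower in the xylose phase of pulsed cells and a median of 2.52 (2.98 in controls). The difference remained in 33 of the 36, but it was smaller in pulsed cells than in controls in 29. The difference between the 2 comparisons was called downward in 13 and upward in 1. NDE1, an external NADH dehydrogenase of the mitochondria, lay at 5.75, 5.75 and 5.98 against 11.73, 12 and 11.96. Its difference of 6.07 ± 0.17 lay close to the 5.91 of controls, with a difference between the 2 of 0.15 ± 0.23. NDE2 differed by 7.11, the internal dehydrogenase gene NDI1 by 4.71 and RIP1, the iron-sulfur protein of complex III, by 4.49. In the tricarboxylic acid cycle 10 of 16 genes were higher and 0 lower. The succinate dehydrogenase gene SDH1 lay at 9.54, 9.62 and 9.50 against 11.84, 12.03 and 11.98. The median of the cycle was 1.07 against 1.91 in controls. Mitochondrial ribosomal proteins were higher in 36 of 66 cases and lower in 0, with a median of 1.04 that lay close to the threshold, and 8 passed a log2 difference of 1.5. Of 18 genes of peroxisomal beta-oxidation and the carnitine shuttle, 13 were higher and 0 lower (7 of the 10 left without the dimmest 25%). SPS19, an auxiliary enzyme of beta-oxidation, lay at 5.93, 6.03 and 6.22 against 12.01, 12.15 and 12.15. YAT2, a carnitine acetyltransferase, was higher by 5.02, above the 3.15 of controls, whereas CTA1, the peroxisomal catalase, was higher by 4.53, below the 6.87 of controls.

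**Figure D2:**
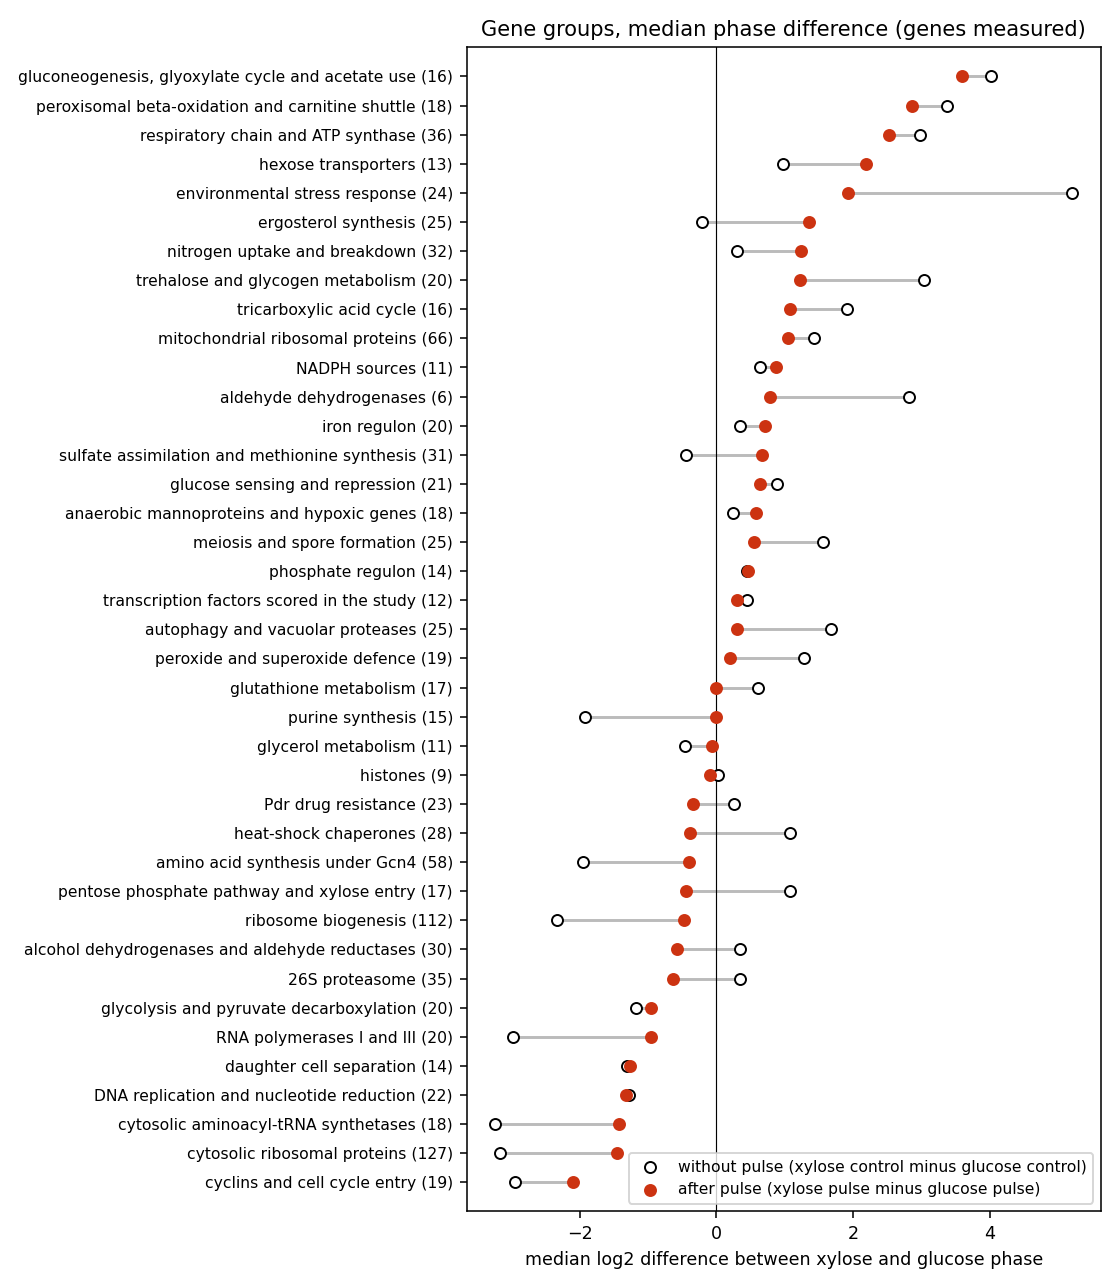
Median log2 phase difference of each gene group in controls (open circles) and in pulsed cells (filled circles), ordered by the pulsed median, with the number of genes measured in brackets. Respiration and gluconeogenesis stay near their control medians, the environmental stress response moves from 5.20 to 1.93, ribosome biogenesis from -2.33 to -0.47, and ergosterol synthesis crosses 0 from -0.21 to 1.36.

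Growth genes were lower in the xylose phase, as in controls, but by less. Of 127 cytosolic ribosomal protein genes 105 were lower and 0 higher in pulsed cells, against 123 and 0 in controls. Their median moved from -3.16 to -1.45, and the difference between the phase differences was called in 104, every time upward. At a log2 difference of 1.5, 57 were lower in pulsed cells. Of these 127 probe sets 25 are shared between near-identical copies. RPL22A lay at 12.11, 11.90 and 12.03 on glucose pulse arrays against 7.88, 7.90 and 8.22 on xylose pulse arrays. Its control means were 13.30 and 7.91, so that its smaller pulsed difference of -4.01 went with a lower level in the glucose pulse and not with a higher one in the xylose pulse. Over the 127 genes both sides moved. Their median level was 13.49 in the glucose control and 12.44 in the glucose pulse, 10.25 in the xylose control and 10.83 in the xylose pulse. Cytosolic aminoacyl-tRNA synthetases were lower in 12 of 18 cases (18 of 18 in controls) and genes of RNA polymerase I or III in 10 of 20 (13 in controls), which became 4 of 13 without the dimmest 25% of probe sets. SES1, the seryl-tRNA synthetase gene, was lower by 3.14 against 5.92.

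Cell cycle genes were lower in the xylose phase with and without inhibitors. Of 19 cyclins and genes of cell cycle entry 10 were lower and 2 higher, with a median of -2.09 against -2.94 in controls. CLN2, a G1 cyclin gene, lay at 9.43, 9.42 and 9.50 against 4.43, 5.07 and 4.98. SWI5, an activator of genes expressed at the end of mitosis, was lower by 4.85, more than the 3.76 of controls. CLN3, the cyclin that starts the cycle in response to growth, went the other way and turned. It lay at 6.62, 6.53 and 6.70 against 8.11, 8.53 and 8.33, a difference of 1.71 ± 0.16 after -2.94 in controls. Many of these genes are dim, and with the dimmest 25% of probe sets left out, 2 of the group were called lower and the median was -0.18. Of 22 genes of DNA replication and nucleotide reduction 13 were lower and 1 higher, and of 14 genes of daughter cell separation 9 were lower and 2 higher. The 9 histone genes measured stayed inside the log2 threshold, with pulsed differences between -0.80 and 0.23. In bulk RNA, fewer cells in a stage and less RNA per cell cannot be told apart.

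The phase difference of the stress genes was smaller in pulsed cells than in controls. All 24 genes of the environmental stress response were higher in the xylose than in the glucose control, with a median of 5.20. In pulsed cells 19 were higher and 0 lower, with a median of 1.93, and 5 closed, with pulsed differences between -0.10 and 0.45. The difference between the 2 comparisons was called downward in 23. SIP18, a phospholipid-binding protein of osmotic stress, lay at 6.68, 6.67 and 7.03 against 13.97, 13.88 and 13.71. Its mean was 4.23 in the glucose control and 14.11 in the xylose control, so the narrowing was on the glucose side. HSP12, a small membrane-protecting stress protein, lay at 12.64, 12.79 and 13.11 against 13.71, 13.94 and 14.00, and its difference of 1.03 ± 0.13 was only just past the threshold after 3.95 in controls. It was not called without glucose pulse replicate 1 (0.93) or without xylose pulse replicate 3 (0.98). CTT1, the cytosolic catalase, was the exception, with 3.74 in pulsed cells and 2.54 in controls. Trehalose and glycogen genes were higher in 10 of 20 cases and lower in 4, and 5 of them closed. The trehalose 6-phosphate synthase gene TPS1 had a pulsed difference of -0.05 after 1.57 in controls, whereas GAC1, the phosphatase subunit that activates glycogen synthase, remained with 7.55 after 8.54.

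**Figure D3:**
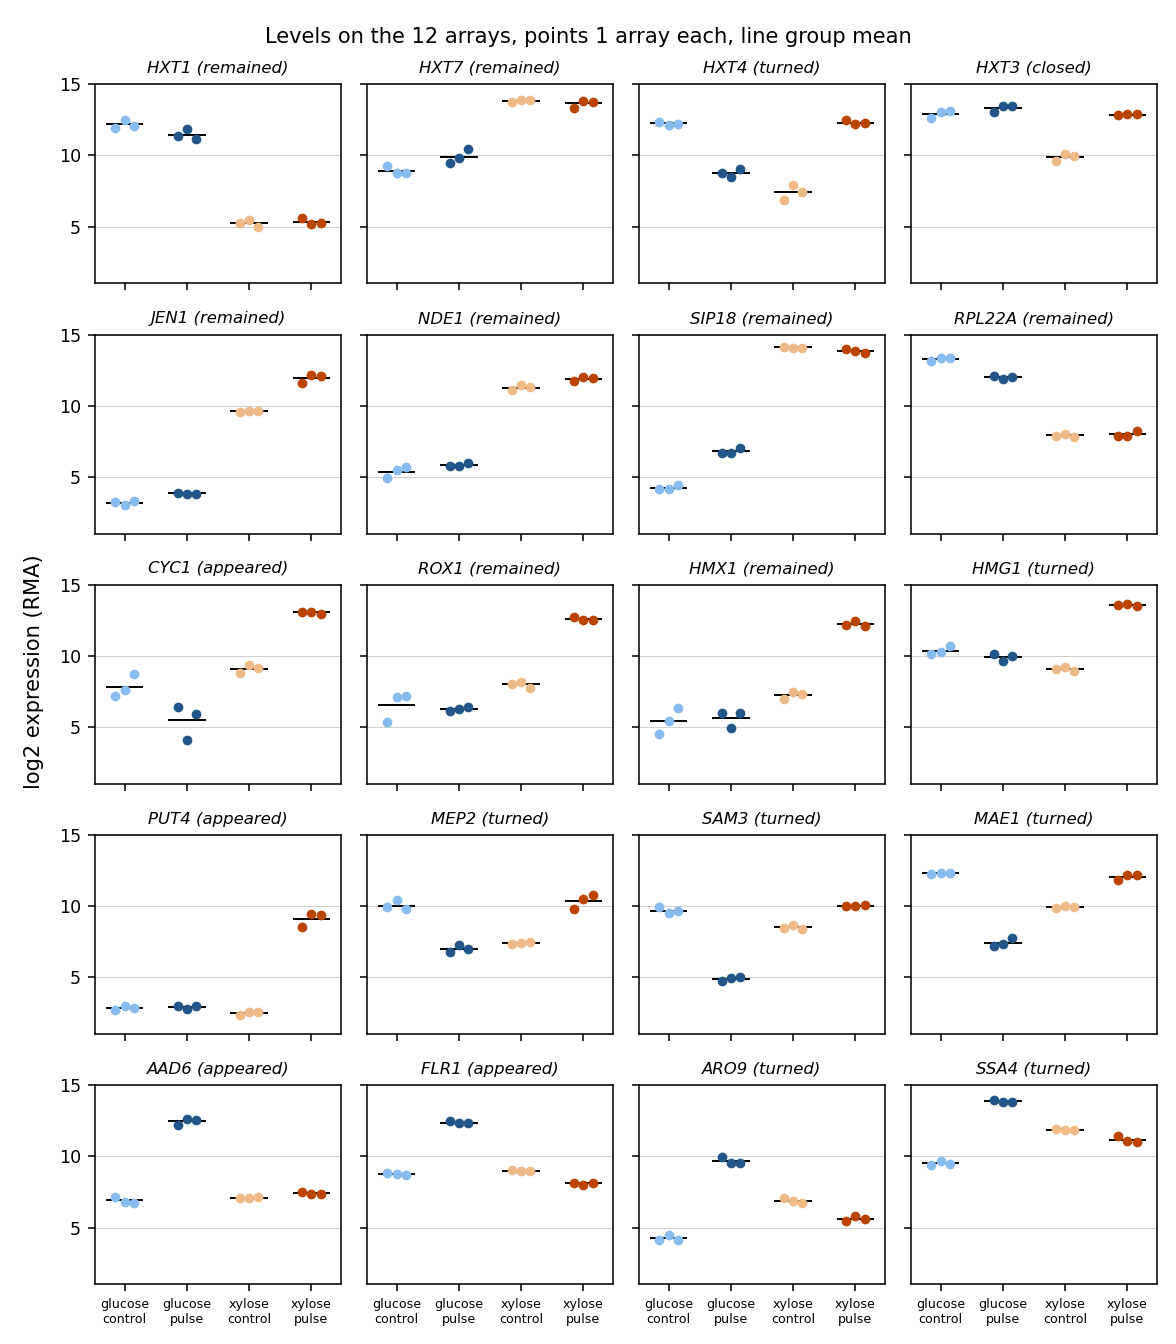
Log2 level of 20 genes on the 12 arrays, 1 point per array and a line at each group mean, for the 4 groups named on the x axis. HXT1, HXT7, NDE1 and SIP18 are still called in the same direction after the pulse, SIP18 with 7.06 against 9.88 in controls. HXT3 loses its phase difference and HXT4 reverses it. PUT4 gains one through the xylose pulse arrays, AAD6 and FLR1 through the glucose pulse arrays, and CYC1 through a higher xylose pulse and a lower glucose pulse.

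Among differences that appeared or widened with a high level in the xylose pulse were genes tied to heme, oxygen and sterols. CYC1, the gene of the main cytochrome c of respiring cells, lay at 6.41, 4.07 and 5.89 on the glucose pulse arrays and at 13.11, 13.11 and 12.99 on the xylose pulse arrays. Its pulsed difference of 7.61 ± 0.49 was the largest of the appeared class. The control difference was 1.27 ± 0.49 and was not called, and the arrays of this gene scattered widely in the glucose phase, with 7.16, 7.64 and 8.71 in the glucose control. ROX1, the repressor of hypoxic genes whose own transcription depends on heme, lay at 6.10, 6.25 and 6.44 against 12.75, 12.54 and 12.53. HMX1, the heme oxygenase gene, lay at 5.96, 4.92 and 6.02 against 12.17, 12.46 and 12.13. Both were called in controls too, but far lower, at 1.45 and 1.87, and the differences between the 2 comparisons were 4.89 ± 0.51 and 4.75 ± 0.54. In all 3 genes the xylose pulse arrays were the only group above a mean of 10.

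Ergosterol synthesis is a long pathway that uses oxygen, heme, NADPH and acetyl-CoA. Of its 25 measured genes 14 were higher and 0 lower in the xylose phase of pulsed cells, with a median of 1.36, while in controls 3 were higher and 5 lower, with a median of -0.21. The difference between the 2 was called upward in 18 and downward in 0. The phase difference appeared in 8 genes, turned in 2, remained in 3 and closed in 3. HMG1, one of the HMG-CoA reductases that set the rate of the pathway, turned with 10.11, 9.64 and 9.99 against 13.61, 13.69 and 13.54, a difference of 3.70 ± 0.15 after -1.30. ERG3 and ERG7, which encode the sterol C-5 desaturase and lanosterol synthase, appeared with 2.09 ± 0.08 and 2.23 ± 0.10. ERG3 lay at 11.81, 11.60 and 11.66 against 13.73, 13.83 and 13.78, a 4.26-fold difference.

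The regulators of sterol genes were higher in the xylose phase in both comparisons. ECM22, an activator of sterol genes, was higher by 3.48 in the xylose phase of pulsed cells and by 1.30 in controls. Its mean was 7.94 in the glucose pulse and 11.43 in the xylose pulse, against 11.50 in the xylose control, so that the wider difference lay on the glucose side. UPC2, its paralog, was higher by 1.87 and 1.14. Over the whole group the median level was 12.11 in the glucose control, 11.93 in the glucose pulse, 11.60 in the xylose control and 13.32 in the xylose pulse. Anaerobic mannoprotein and hypoxic genes were higher in 7 of 18 cases and lower in 1. PAU24 and PAU7, seripauperin genes whose probe sets overlap with those of their many copies, were higher by 4.44 and 4.07. ANB1, a translation factor isoform of anaerobic cells, was lower by 2.69.

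Nitrogen genes fell into every class. Of 32 measured genes 19 were higher and 5 lower in the xylose phase of pulsed cells, with 6 turned, 6 appeared, 10 remained and 4 closed. Without the dimmest 25% of probe sets 17 stayed in the test, 11 higher and 0 lower. PUT4, the proline permease, was dim in the glucose pulse at 2.99, 2.76 and 2.95 and lay at 8.52, 9.45 and 9.36 in the xylose pulse. Its means were 2.84 and 2.49 in the controls, so that only the xylose pulse arrays carried a high level. MEP2, the high-affinity ammonium permease, turned with 6.75, 7.28 and 6.98 against 9.83, 10.50 and 10.81, a difference of 3.38 ± 0.22 after -2.63. Here both sides moved, since the mean was 10.05 in the glucose control and 7.41 in the xylose control. GLN1, glutamine synthetase, turned from -1.72 to 2.43. GAT1, an activator of nitrogen catabolite genes, and DIP5, the permease for glutamate and aspartate, appeared with 1.64 ± 0.10 and 3.89 ± 0.21.

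GDH1, the NADPH-dependent glutamate dehydrogenase of ammonium assimilation, closed. It lay at 12.30, 12.54 and 12.25 in the glucose pulse and at 12.14, 12.53 and 12.51 in the xylose pulse. In controls the means were 13.40 and 8.41, a difference of -4.99, and the pulsed difference of 0.03 had a 95% interval from -0.34 to 0.40. Its paralog GDH3 remained, higher by 3.33. PUT1, proline oxidase, also remained with 3.11 after 5.10, and DAL7, a malate synthase isoenzyme of allantoin breakdown, with -4.20 after -3.65.

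Methionine and sulfur genes were higher in 11 of 31 cases and lower in 2, against 4 and 12 in controls, and the difference between the 2 was called upward in 14 and downward in 0. The largest differences belonged to permeases and an enzyme of the pathway between cysteine and methionine. SAM3, the S-adenosylmethionine permease, lay at 4.73, 4.92 and 5.0 on the glucose pulse arrays and at 10.01, 10.01 and 10.06 on the xylose pulse arrays, a 35.4-fold difference that turned a control difference of -1.17. The mean of the glucose control was 9.69, so the gap lay in the low level of the glucose pulse. MMP1, the permease for S-methylmethionine, was higher by 4.33 and STR3, cystathionine beta-lyase, by 3.40, both above their control differences of 1.17 and 1.32. MET3, ATP sulfurylase, the first enzyme of sulfate assimilation, stayed lower in the xylose phase with -1.87 after -2.85, and MET10 and MET5, subunits of sulfite reductase, had pulsed differences of -0.25 and -0.51 after -1.58 and -2.50.

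MAE1, the mitochondrial malic enzyme that forms NADPH, had one of the widest reversals. It lay at 7.17, 7.35 and 7.78 in the glucose pulse and at 11.83, 12.22 and 12.17 in the xylose pulse, a difference of 4.63 ± 0.14, while the controls had 12.32 (glucose) and 9.93 (xylose). Of 11 NADPH-forming or NAD kinase genes 5 were higher and 1 lower in pulsed cells, and 2 higher and 1 lower of the 8 left without the dimmest 25%. POS5, the mitochondrial NADH kinase, was higher by 2.69, above the 1.67 of controls. The cytosolic aldehyde dehydrogenase gene ALD6 lay at 13.83, 13.98 and 14.00 against 13.66, 13.92 and 13.84, a difference of -0.13 (95% interval -0.36 to 0.11) after -1.77 in controls. These levels are near the top of the scale. With ALD3, ALD4 and ALD5 it was 1 of 4 of the 6 aldehyde dehydrogenase genes that closed, and ALD2 and HFD1 remained with 2.85 and 1.54.

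Over the 49 genes that turned toward a higher level in the xylose pulse, the glucose pulse lay below the glucose control in all but 1 and the xylose pulse above the xylose control in 47, with median shifts of -1.29 and 2.07. The class requires a fall in the glucose pulse, a rise in the xylose pulse or both, so these counts partly follow from it. FCY2, the purine and cytosine permease, lay at 8.23, 8.77 and 8.91 against 12.20, 12 and 12.15 after control means of 12.42 and 10.33. The amino acid genes ARG3 (ornithine carbamoyltransferase) and SHM2 (serine hydroxymethyltransferase) belonged here with 2.50 and 2.08, as did CYB5, cytochrome b5, an electron donor of sterol and fatty acid enzymes, with 3.24. Of the 154 genes that appeared with a higher level in the xylose pulse, the shift was the larger one in the xylose phase for 97 and in the glucose phase for 57. IZH1, a membrane protein of zinc homeostasis, and GCV1, a glycine decarboxylase subunit, were among the largest, at 4.46 and 3.74, with YBR242W at 4.73. IZH1 lay at 8.67, 8.67 and 9.04 against 13.14, 13.36 and 13.25.

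**Figure D4:**
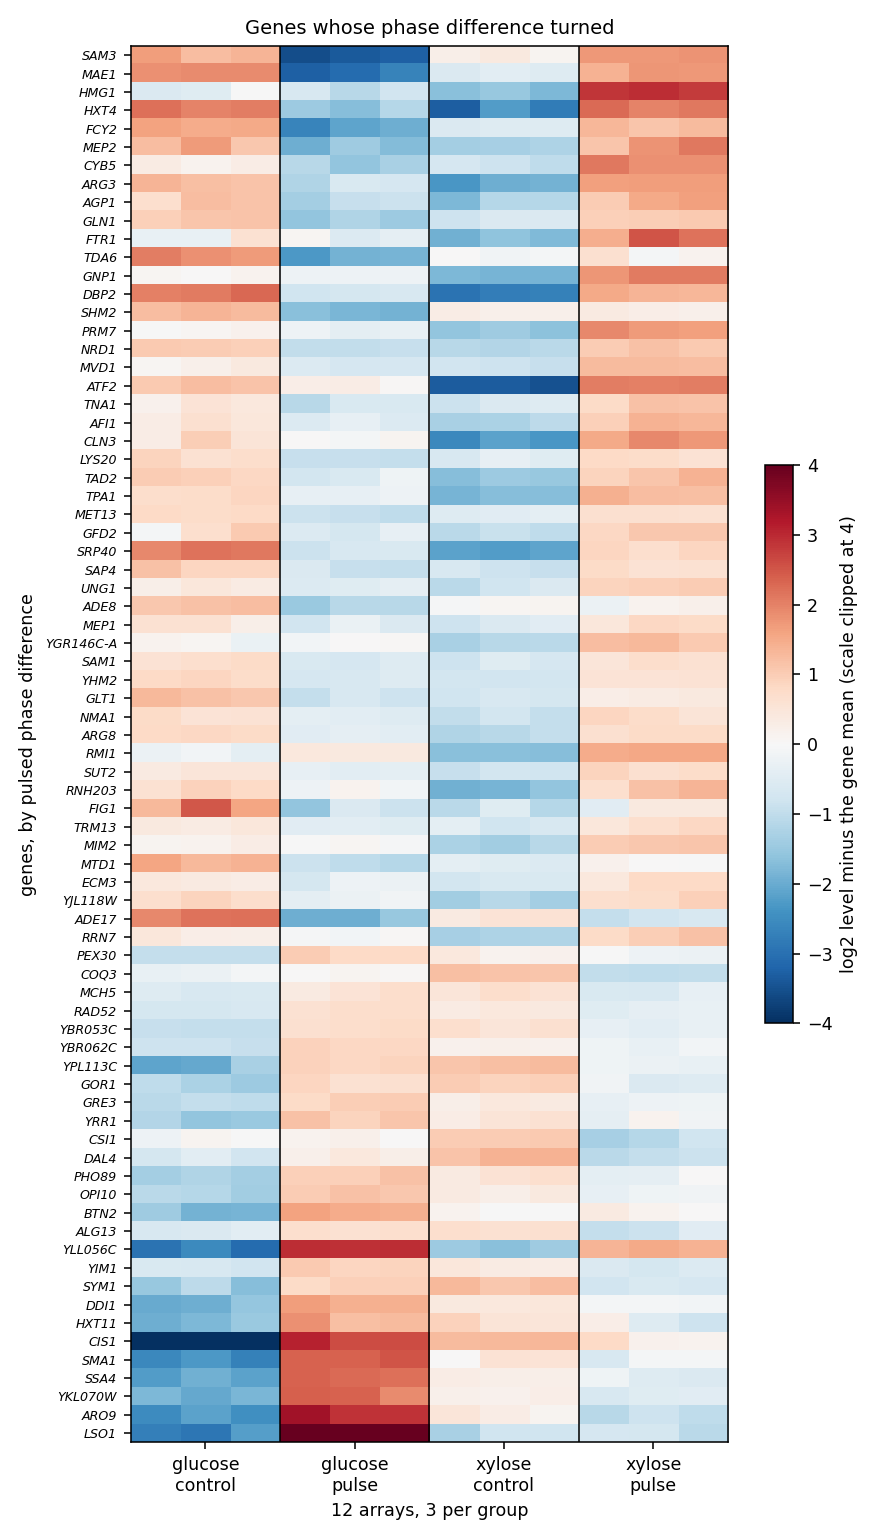
Level of the 76 genes whose phase difference turned, each row centred on the gene's mean over the 12 arrays (log2, colour scale clipped at 4 and -4), ordered by the pulsed phase difference. In most of the upper 49 genes the glucose control and the xylose pulse are the high groups, and in the lower 27 the glucose pulse is the highest of the 4 groups in most rows.

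Some transcripts were highest in the glucose pulse. Of the 27 genes that turned toward a lower level in the xylose pulse, all 27 had a higher mean in the glucose pulse than in the glucose control. The class requires a rise in the glucose pulse, a fall in the xylose pulse or both, so this count partly follows from it. The shift in the glucose phase was the larger one in 23. ARO9, an aromatic aminotransferase, lay at 9.95, 9.51 and 9.51 against 5.48, 5.79 and 5.60, a difference of -4.03 ± 0.15 after 2.67. ARO10, the decarboxylase of the next step, appeared with -2.72. SSA4, the stress-induced Hsp70 gene, lay at 13.96, 13.87 and 13.82 against 11.45, 11.08 and 11.02, a difference of -2.70 after 2.35. LSO1, CIS1, YKL070W and SMA1, a spore membrane gene, completed the 6 largest at -5.22, -2.39, -2.73 and -2.68.

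In the appeared class AAD6, a putative aryl-alcohol dehydrogenase, lay at 12.25, 12.67 and 12.60 in the glucose pulse and at 7.48, 7.38 and 7.39 in the xylose pulse, a 34-fold difference after control means of 6.91 and 7.11. FLR1, a multidrug exporter, lay at 12.49, 12.34 and 12.35 against 8.15, 8.02 and 8.14, a difference of -4.29 ± 0.08 after 0.25. FRM2, of the nitroreductase family, differed by -3.60. For these genes the high level was seen in the glucose pulse alone of the 4 groups. HOF1, a cytokinesis gene, was different in that its low level of 5.0, 4.71 and 4.76 stood in the xylose pulse, after 9.02 and 8.07 in the controls. YOL038C-A and YMR030W-A, at -3.80 and -3.59, were the other 2 of the 6 largest. The AAD genes are close copies of each other, and their probe sets may share signal.

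Of 30 alcohol dehydrogenase and aldehyde reductase genes, which include enzymes known to reduce HMF and furfural, 9 were lower (30.0%) and 4 higher (13.3%) in the xylose phase of pulsed cells, with a median of -0.57 against 0.34 in controls. The shares over all probe sets were 22.9% and 20.8%, so these counts lay near the background. ADH6, an NADPH-dependent alcohol dehydrogenase, lay at 12.29, 12.40 and 12.48 against 10.41, 10.44 and 10.51. ARI1, an aldehyde reductase, lay at 11.86, 12.01 and 12.01 against 8.15, 8.53 and 8.43. Both remained, with control differences of -2.36 and -4.12, so that these 2 reductases stayed lower in the xylose phase. GRE2, a reductase active on many aldehydes and ketones, was lower by 1.33 and SFA1, a glutathione-dependent alcohol dehydrogenase, by 1.25. BDH1, butanediol dehydrogenase, was the largest in the other direction, with 4.03 ± 0.10 after 2.61. OYE3, one of the old yellow enzymes, which oxidise NADPH, closed. It had differed by 6.20 between the controls (6.23 with glucose and 12.43 with xylose) and lay at 12.73, 12.62 and 12.64 against 12.15, 12.05 and 12 after the pulse, a difference of -0.60 (95% interval -0.88 to -0.32).

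Of 23 genes of Pdr drug resistance, 7 were lower (30.4%) and 3 higher (13.0%) in the xylose phase of pulsed cells, also near the shares over all probe sets. The main exporters were high in both pulses. PDR5 lay at 13.10, 13.50 and 13.51 against 12.69, 12.93 and 12.91, a difference of -0.53 that did not reach the log2 threshold, and YOR1 had -0.49. SNQ2 was just past the threshold with -1.04 ± 0.08 and not called without xylose pulse replicate 1 (-1.0). PDR3, a regulator of these exporters, appeared with -1.42, whereas PDR1, the other one, had a value of -0.15. QDR2, a drug and potassium transporter, was higher by 4.44 after 1.17. RSB1, a transporter of sphingoid bases, held the largest control difference of the closed class, 7.31. It lay at 12.37, 12.35 and 12.36 against 13.05, 13.16 and 13.15 in pulsed cells, which left 0.76 ± 0.10.

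Heat-shock chaperones gave no common direction between the pulsed phases. Of 28, 4 were higher (14.3%, against 20.8% over all probe sets) and 5 lower (17.9%, against 22.9%). In controls 15 were higher and 2 lower, and the difference between the 2 was called downward in 18 and upward in 1. SSA2, a constitutive Hsp70 gene, was lower by 3.11, against 3.15 in controls. HSP78, the mitochondrial disaggregase, was higher by 1.28, and HSP104, HSP82 and HSP42 closed with values of -0.27, -0.25 and -0.37. Of 35 proteasome genes, regulators included, 5 were lower (14.3%, below the 22.9% over all probe sets) and 0 higher. At a log2 difference of 1.5, 0 were lower. The values were small but 34 of 35 were below 0, with a median of -0.63. The median level was 13.16 in the glucose pulse and between 12.21 and 12.65 in the other 3 groups. UMP1, a proteasome assembly factor, had the largest difference, with 13.16, 13.04 and 13.08 against 11.87, 11.68 and 11.67. The transcription factor gene RPN4 had a value of 0.07. Of 17 glutathione genes 1 was higher (5.88%) and 2 lower (11.8%), both below the shares over all probe sets. The largest was GSH2, glutathione synthetase, at -3.25 ± 0.10. Of 19 genes of peroxide and superoxide defence 6 were higher (31.6%, against 20.8% over all probe sets) and 3 lower (15.8%, against 22.9%). In controls 12 were higher and 2 lower. Without the dimmest 25% of probe sets 4 of 17 were higher and 3 lower in pulsed cells, with a median of 0.11. TSA2, a peroxiredoxin, was higher by 3.43.

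**Figure D5:**
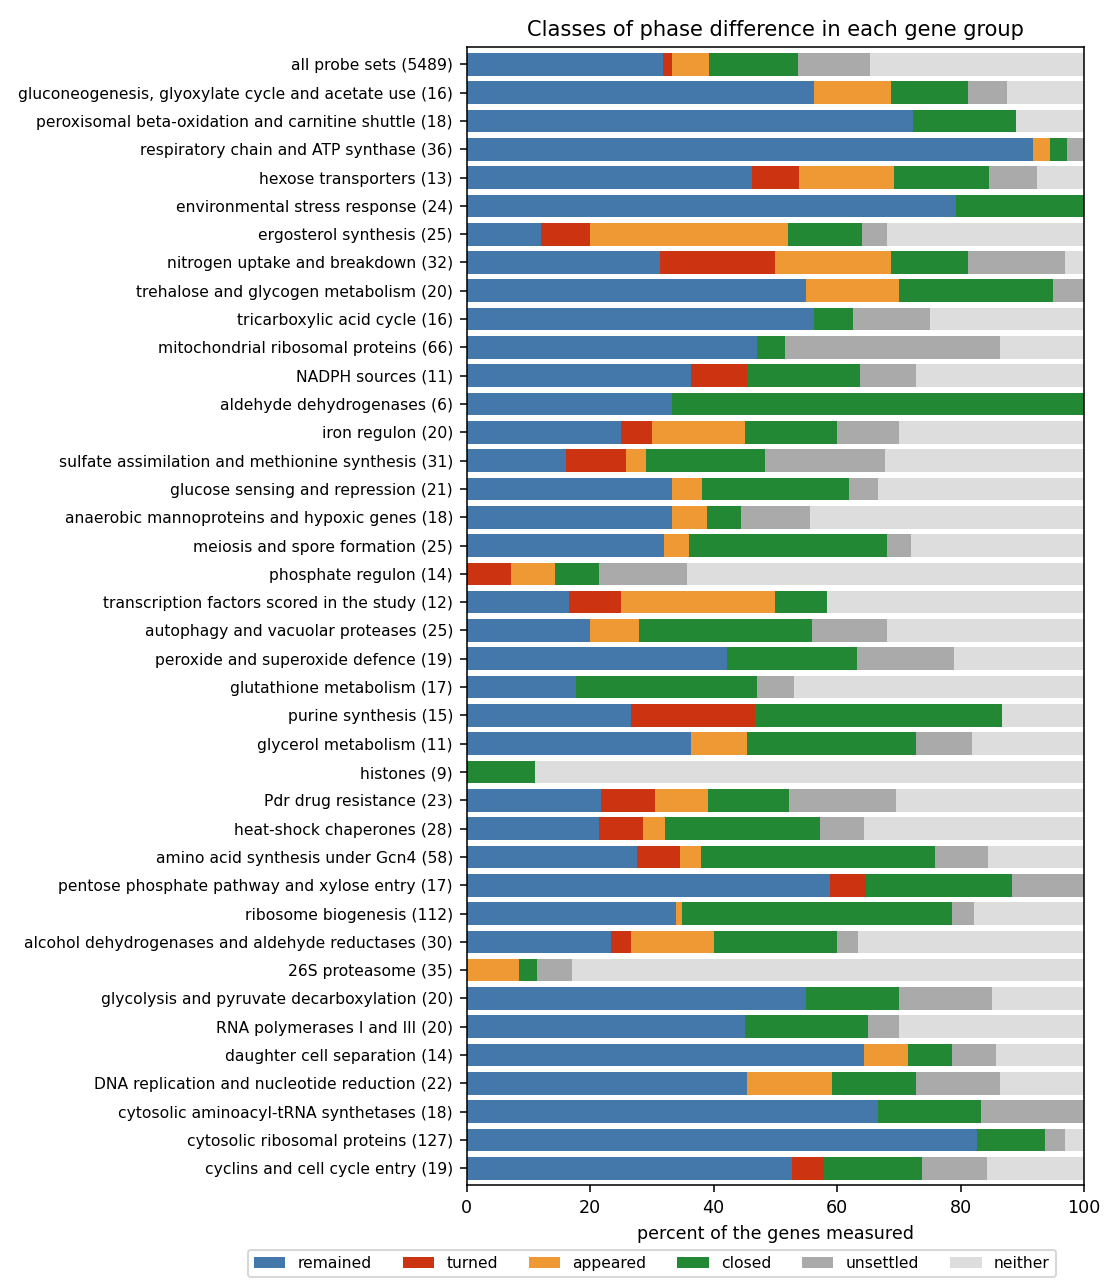
Share of the genes measured in each group (percent) that fall in each class, for all 5489 probe sets at the top and below for the gene groups ordered by their pulsed median, with the number measured in brackets. Remained is the main class in respiration and ribosomal proteins, closed in ribosome biogenesis and the aldehyde dehydrogenases, and 8 of the 25 ergosterol genes appeared.

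Many phase differences of ribosome biogenesis and of amino acid and purine synthesis closed. Of 112 ribosome biogenesis genes 88 were lower in the xylose control than in the glucose control. In pulsed cells 37 were lower and 2 higher, the median moved from -2.33 to -0.47, 49 closed, 38 remained, and the difference between the 2 was called upward in 89. HAS1, an RNA helicase of ribosome assembly, lay at 9.75, 9.37 and 9.54 against 9.04, 9.09 and 9.25, after control means of 11.07 and 5.60. NOC4, needed for the small subunit, closed with -0.68 after -4.89. UTP8 and NOP1 remained lower, at -3.96 and -2.28, and BUD23, a methyltransferase of the small subunit, was higher by 2.01.

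Of 58 amino acid synthesis genes controlled by Gcn4, 45 were lower in the xylose control. In pulsed cells 17 were lower (29.3%, against 22.9% over all probe sets) and 6 higher (10.3%, against 20.8%), and 22 closed. LEU9, an isopropylmalate synthase of leucine synthesis, lay at 7.55, 7.55 and 7.69 against 7.46, 7.62 and 7.50 after control means of 11.48 and 5.23. LYS9, of lysine synthesis, remained at -4.86, and ARG1, argininosuccinate synthetase, appeared at 2.69. GCN4 itself had a value of 0.20. In purine synthesis 13 of 15 genes were lower in the xylose control. In pulsed cells 4 were lower (26.7%) and 3 higher (20.0%), near the shares over all probe sets. The lower ones were IMD2, IMD3, IMD4 and GUA1 of the branch to GMP, with differences of -2.26, -3.36, -1.90 and -1.21. The IMD2 probe set also reads near-identical copies. FUR4, the uracil permease, and YDR222W closed with -0.09 and -0.58 after -4.66 and -5.89.

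A closed difference narrows by definition, and the levels show on which arrays. Of the 438 closed genes that had been higher in the xylose control, 421 had a higher mean in the glucose pulse than in the glucose control, with a median shift of 0.99. In the xylose phase 45 had a higher mean in the pulse than in the control, with a median shift of -0.69. For the 356 that had been lower, the median shift was -0.91 among glucose arrays and 1.02 among xylose arrays. YGP1, a cell wall glycoprotein of starved cells, lay at 13.00, 13.74 and 13.66 against 13.06, 13.91 and 13.94, with replicate 1 the lowest of both groups, after 8.72 and 13.82 in controls. YOL131W, UGX2 and MAM1, a monopolin subunit of meiosis, closed with -0.68, 0.97 and 0.80 after 6.41, 5.55 and 5.08. UGX2 lay just under the log2 threshold.

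Of 21 genes of glucose sensing and repression 7 were higher (33.3%) and 1 lower (4.76%) in the xylose phase of pulsed cells. The shares over all probe sets were 20.8% and 22.9%. In this group 7 remained, 1 appeared and 5 closed. REG2, a regulatory subunit of the Glc7 phosphatase, lay at 6.29, 6.30 and 6.53 against 11.35, 11.71 and 11.81, and RAS1 lay at 8.91, 8.74 and 8.84 against 4.38, 4.47 and 4.36. RGT1 and MTH1, repressors of hexose transporter genes, were higher by 2.56 and 3.32. MIG2, a repressor induced by glucose, closed with -0.46 after -2.87, while MIG1, the main glucose repressor, was higher by 1.12. Of the other groups examined, the 14 phosphate genes had 1 higher and 1 lower (7.14% each), below the shares over all probe sets. The 11 glycerol genes had 3 higher and 3 lower (27.3% each), near those shares. The 20 iron genes had 8 higher and 2 lower. Without the dimmest 25% of probe sets 7 iron genes stayed in the test, 3 higher and 2 lower. In the glycerol group GPD1, glycerol 3-phosphate dehydrogenase, was lower by 1.51 in the xylose phase of pulsed cells.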

How the data were processed

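Total RNA of 12 samples was hybridised to Affymetrix Yeast Genome 2.0 arrays. The authors deposited log2 values after RMA normalization, and no other unit was used. Probe sets were named through the platform annotation, with 12 symbols brought to their current form. Of the 5705 probe sets 216 had no named gene, and for the 43 genes with several probe sets the one with the highest mean stood for the gene. limma 3.58.1 (R 4.3.3) was fitted to 12 arrays with 1 mean per group, 8 residual degrees of freedom and p-values adjusted by Benjamini-Hochberg over 5489 probe sets. Means, counts and figures were made with pandas 2.3.3, numpy 2.4.6 and matplotlib 3.10.9 (Python 3.11.15). The arrays of a condition came from separate bioreactors according to the study's methods, and 3 arrays a group limit the precision. On simulated arrays with 200 of 5489 probe sets changed, 99% of those and 0% of the others were called. On the real arrays 43.7% of probe sets were called between the pulsed phases. How the calls behave with so large a share changed was not tested.

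Same-numbered arrays of the pulsed groups deviated together from their group means (r = 0.599, 0.201 and 0.395 for numbers 1 to 3), although glucose pulse 2 with xylose pulse 3 (0.412) and glucose pulse 3 with xylose pulse 2 (0.23) did so at least as much as number 2. As each of these same-numbered r passed 0.1, a fit with the number, which the labels give, as a block was run as an alternative. The main fit did not pair the arrays. Among the controls, glucose control 3 with xylose control 3 had an r of 0.0687. Within a phase, same-numbered control and pulse arrays had r of 0.474, 0.381 and 0.145 (glucose) and 0.569, 0.299 and 0.305 (xylose). Some arrays with different numbers also deviated together, as xylose control 2 with xylose pulse 3 (0.328) and glucose control 2 with glucose pulse 3 (0.285). A fit with the number within a phase as a random block (consensus correlation 0.395) was a further alternative.

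The comparison, the gene lists and the genes named were chosen with earlier results of these data known. Named were the 10 largest pulsed differences in each direction, the 6 largest of each class and direction, up to 4 called members of each list, genes the study names, and members that did not pass. ARG3, ARO10, CLN3, CYB5, GAT1, GDH3, GLN1, GRE3, HSP12, HXT3, HXT7, MIG1, MTH1, PDC1, ROX1, SFA1, SNF3, XKS1 and XYL2 were named after their values were seen. Tables of promoter or protein sequences were not used here.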

Additional observations from a re-analysis of the deposited data

Results flagged for a closer look

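The effect of the phase with inhibitors was tested against that without inhibitors in limma's 12-array fit, and a called difference between the 2 is what put the following results here. It was called in 2134 probe sets, of which 325 belonged to the appeared, 76 to the turned and 794 to the closed class. The values below are pulsed minus control phase differences on the log2 scale, for the 6 largest genes of each class and direction. All are from 3 arrays a group, which is too few for a test of single outlying arrays.

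Of the phase differences that turned toward a higher level in the xylose pulse, HXT4 moved by 8.42, MAE1 by 7.02, SAM3 by 6.32, MEP2 by 6.01, FCY2 by 5.56 and HMG1 by 5.0. These are mainly transporters and 2 enzymes, malic enzyme and HMG-CoA reductase. Of those that turned the other way, CIS1 moved by -8.10, LSO1 by -6.86, ARO9 by -6.70, SMA1 by -5.58, SSA4 by -5.05 and YKL070W by -4.83.

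Of the differences that appeared with a higher xylose pulse, PUT4 moved by 6.57, CYC1 by 6.34, YBR242W by 4.86, DIP5 by 4.53, IZH1 by 3.54 and GCV1 by 3.41. Of those that appeared with a lower xylose pulse, AAD6 moved by -5.29, FLR1 by -4.54, YOL038C-A by -4.37, HOF1 by -3.24, FRM2 by -2.76 and YMR030W-A by -2.69. CYC1 rested on glucose pulse arrays between 4.07 and 6.41, the widest spread of these 12 genes.

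Of the closed differences that had been lower in the xylose control, LEU9 moved by 6.18, YDR222W by 5.31, HAS1 by 5.05, GDH1 by 5.02, FUR4 by 4.57 and NOC4 by 4.21. Of those that had been higher, YOL131W moved by -7.09, OYE3 by -6.80, RSB1 by -6.55, YGP1 by -4.92, UGX2 by -4.58 and MAM1 by -4.28.

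Among the 216 probe sets without a named gene, which no comparison of gene groups used, 98 were called between the pulsed phases (45.4%), 61 higher and 37 lower in the xylose phase. Their differences ran from -5.80 to 7.15.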

How the results depend on the processing

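A log2 threshold of 1.5 lowered the counts. It left 1426 probe sets called between the pulsed phases, 683 higher and 743 lower, and 1202 for the difference between the phase differences, 642 above and 560 below. The classes then held 1015 that remained, 29 that turned, 163 that appeared and 2995 in neither. Every other count over all probe sets, under every other alternative, stayed within 1.5 times its value. Of 35 counts of 5 or more in the gene lists, 12 moved further at the threshold of 1.5 and 11 with the lowest 25% left out, which removes dim members from the test, and 0 under the others. The alternatives were the fit to the arrays of the contrast alone (which gives no class), all probe sets, the lowest 25% left out, quantile normalization, median centring, another variance prior, the mean over a gene's probe sets (for the lists), a looser adjusted p, each array left out and, chosen after seeing the data, replicates 2 and 3 only. With the replicate number as a block 2397 probe sets were called between the pulsed phases and 2140 for the difference, with 76 turned, and the block changed no call of a named gene. With the number within a phase as a random block these counts were 2396, 2139 and 76. The median pulsed difference of all probe sets ran from -0.08 to -0.05 over the settings. Of 164 named genes none changed sign, and of 3688 alternative values 16 lost their call, 12 of them at the threshold of 1.5. SNQ2 lost its call with replicates 2 and 3 only (-0.99). A search of promoters was not run. Levels near the floor or the top of the scale limit how exactly differences are sized.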
